A study of Mus musculus with 18 samples.

Results

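The Slc25 genes encode the mitochondrial carriers, and 46 of them were measured among the 22180 genes of the arrays. They were chosen by symbol alone, as every gene named Slc25a followed by a number in the probe-to-gene table, and each had 1 probe set of its own. A further probe set shared by Slc25a35 and Rangrf was left out.

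The cells were NaF cells, a mouse mammary carcinoma line, on 18 Affymetrix arrays in 6 groups of 3. For 48 hours before ligand, cells of 4 groups were held in DMEM with 10% charcoal-treated FBS, whose lipid-soluble molecules have been removed. They then received 1 µM of GW1516, TTNPB or all-trans retinoic acid over 6 hours, or served as the charcoal control. Cells kept in DMEM with 10% FBS were given palmitate at 10 µM for 6 hours or served as the full-medium control. Retinoic acid is the natural ligand of the retinoic acid receptors (RAR), TTNPB is a synthetic RAR agonist with aromatic rings in place of the polyene chain, GW1516 is a synthetic agonist of the nuclear receptor PPARδ, and palmitate is a saturated fatty acid. All 6 groups are the same line, without any genetic change named in the labels, and no vehicle is named for the controls.

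Mitochondrial carriers are small proteins of the inner membrane that exchange or import particular metabolites. They move ADP and ATP, phosphate, di- and tricarboxylates, amino acids, acylcarnitines, cofactors and iron between cytosol and matrix. Slc25a20 exchanges acylcarnitines for carnitine, the step that lets long-chain fatty acids reach the enzymes of beta-oxidation, and is a known PPAR target. Slc25a42 imports coenzyme A, and the substrate of Slc25a34 is less settled.

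The promoters of the carriers on which the results turn are shown first, because the receptors of these ligands bind DNA at repeats of the letters AGGTCA. Sequences are from RefSeq on GRCm38.p6, 5′ to 3′ on the strand of the gene, over the 300 bases around the annotated start, most of them upstream. The windows are chr4:141623785-141624084 for Slc25a34 and chr8:70212232-70212531 for Slc25a42, both on the minus strand. They are chr9:108661886-108662185 for Slc25a20 on the plus strand and chr9:97110992-97111291 for Slc25a36, a pyrimidine nucleotide carrier, on the minus strand. Capitals mark AGGTCA read on the opposite strand in Slc25a34, and in Slc25a20 the best match to 2 copies of AGGTCA spaced by 1 base.
Slc25a34: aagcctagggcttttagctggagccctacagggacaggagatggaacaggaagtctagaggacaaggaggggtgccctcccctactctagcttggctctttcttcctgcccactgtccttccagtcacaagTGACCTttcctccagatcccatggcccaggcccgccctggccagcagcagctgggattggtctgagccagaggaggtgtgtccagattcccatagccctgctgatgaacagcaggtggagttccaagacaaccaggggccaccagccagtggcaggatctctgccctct
Slc25a42: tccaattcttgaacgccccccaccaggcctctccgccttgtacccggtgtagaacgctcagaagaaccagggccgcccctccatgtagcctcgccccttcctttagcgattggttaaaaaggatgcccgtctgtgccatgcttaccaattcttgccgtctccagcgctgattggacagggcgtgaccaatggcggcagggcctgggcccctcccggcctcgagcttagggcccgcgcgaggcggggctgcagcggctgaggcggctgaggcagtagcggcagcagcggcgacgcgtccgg
Slc25a20: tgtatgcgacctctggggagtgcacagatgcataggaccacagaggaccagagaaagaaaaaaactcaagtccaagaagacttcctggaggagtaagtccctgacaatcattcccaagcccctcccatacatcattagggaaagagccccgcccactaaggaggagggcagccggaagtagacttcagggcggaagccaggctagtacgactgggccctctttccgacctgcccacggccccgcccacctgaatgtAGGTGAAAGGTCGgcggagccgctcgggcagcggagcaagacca
Slc25a36: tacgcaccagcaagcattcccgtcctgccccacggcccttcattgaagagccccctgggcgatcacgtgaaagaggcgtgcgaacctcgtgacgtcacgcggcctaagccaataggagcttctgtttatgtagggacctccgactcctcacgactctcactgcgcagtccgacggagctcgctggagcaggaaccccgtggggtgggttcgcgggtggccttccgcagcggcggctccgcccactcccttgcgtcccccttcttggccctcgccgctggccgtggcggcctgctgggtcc

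On both strands, AGGTCA without a mismatch was found in 16.3% of all 32851 promoter windows and in 4 of the 46 windows that matched 36 of the carriers (8.7%). The window of Slc25a34 was among them, at bases 132 to 137. A pair of AGGTCA copies on 1 strand spaced by 1 base, the form known for PPAR, was found with at most 2 mismatches in 3.86% of all windows and in 3 of the 46 carrier windows (6.52%). Those 3 were of Slc25a20 (AGGTGAAAGGTCG, bases 257 to 269), Slc25a45 and Slc25a47. With at most 2 mismatches, pairs spaced by 2 bases were in 2.99% of all windows and 4 carrier windows. Pairs spaced by 5 bases, a form known for RAR, were in 2.79% of all windows and 0 carrier windows. A spaced match can hold the single motif, so the matches can overlap. With mismatches allowed it need not, and that of Slc25a20 does not. The windows of Slc25a42 and Slc25a36 held none of these at those limits. A match is a string of letters in a window, not a binding site.

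Values are log2 expression values as deposited, where 1 unit is a doubling of the probe signal. The brightness of a probe set depends on its probes, so levels are compared between groups and never between genes. The 2 sera had distributions of their own (array medians 1.06 to 1.32 in charcoal serum and 0.47 to 0.55 in full medium), so no level is compared across them. GW1516 array 3 stood apart. Its values lay 0.231 on average from its group mean, against 0.0816 to 0.145 for the other 17 arrays, and over the 46 carriers the distance was 0.218, against at most 0.151. Luminal epithelial markers were above background for 5 of 7 genes in both control groups (in charcoal controls Krt18 at 7.99 ± 0.05 and Cdh1 at 4.88 ± 0.06, SD, n = 3), beside 2 of 5 mesenchymal genes (Vim at 10.59 ± 0.01) and 1 of 2 endothelial genes (Cdh5 at 8.90 ± 0.09) in charcoal controls. There 2 of 4 leukocyte genes (Cd68 at 1.82 ± 0.25 and Ptprc at 1.46 ± 0.04) were above it as well. So was 1 of 3 measured basal epithelial genes (Trp63 at 1.53 ± 0.14), and 0 of 3 adipocyte genes were. The luminal genes Krt8 (1.68 ± 0.11) and Epcam (1.51 ± 0.21) lay as near the charcoal background of 1.31. In full-medium controls 1 of 4 leukocyte, 0 of 3 basal, 3 of 5 mesenchymal and 1 of 2 endothelial genes were above background. So was 1 of 3 adipocyte genes, Plin1, at 0.60 against a background of 0.59. Both brown adipocyte markers, Ucp1 among them, were under background in both controls. RNA came from whole cultures, so a change in RNA per cell and a change in the share of cells that make it cannot be told apart.

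Background was taken, per group, from 1390 receptor genes of smell and pheromone sensing, as the 95th percentile of their group means. It was 1.15 for the retinoic acid arrays, 1.29 for TTNPB, 1.30 for GW1516, 1.31 for charcoal controls, 0.63 for palmitate and 0.59 for full-medium controls. Of the 46 carriers, 35 were above it in all 6 groups. Slc25a2, Slc25a21, Slc25a31, Slc25a41, Slc25a48, Slc25a53 and Slc25a54 were above it in no group. Slc25a14, Slc25a18, Slc25a32 and Slc25a47 were above it in some groups only. All 46 carriers stayed in the tests. The brightest probe sets of their role groups in charcoal controls were those of Slc25a5, Slc25a39, Slc25a11, Slc25a42, Slc25a28, Slc25a46 and Slc25a30, which says nothing of the amounts of their RNA.

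**Figure D1:**
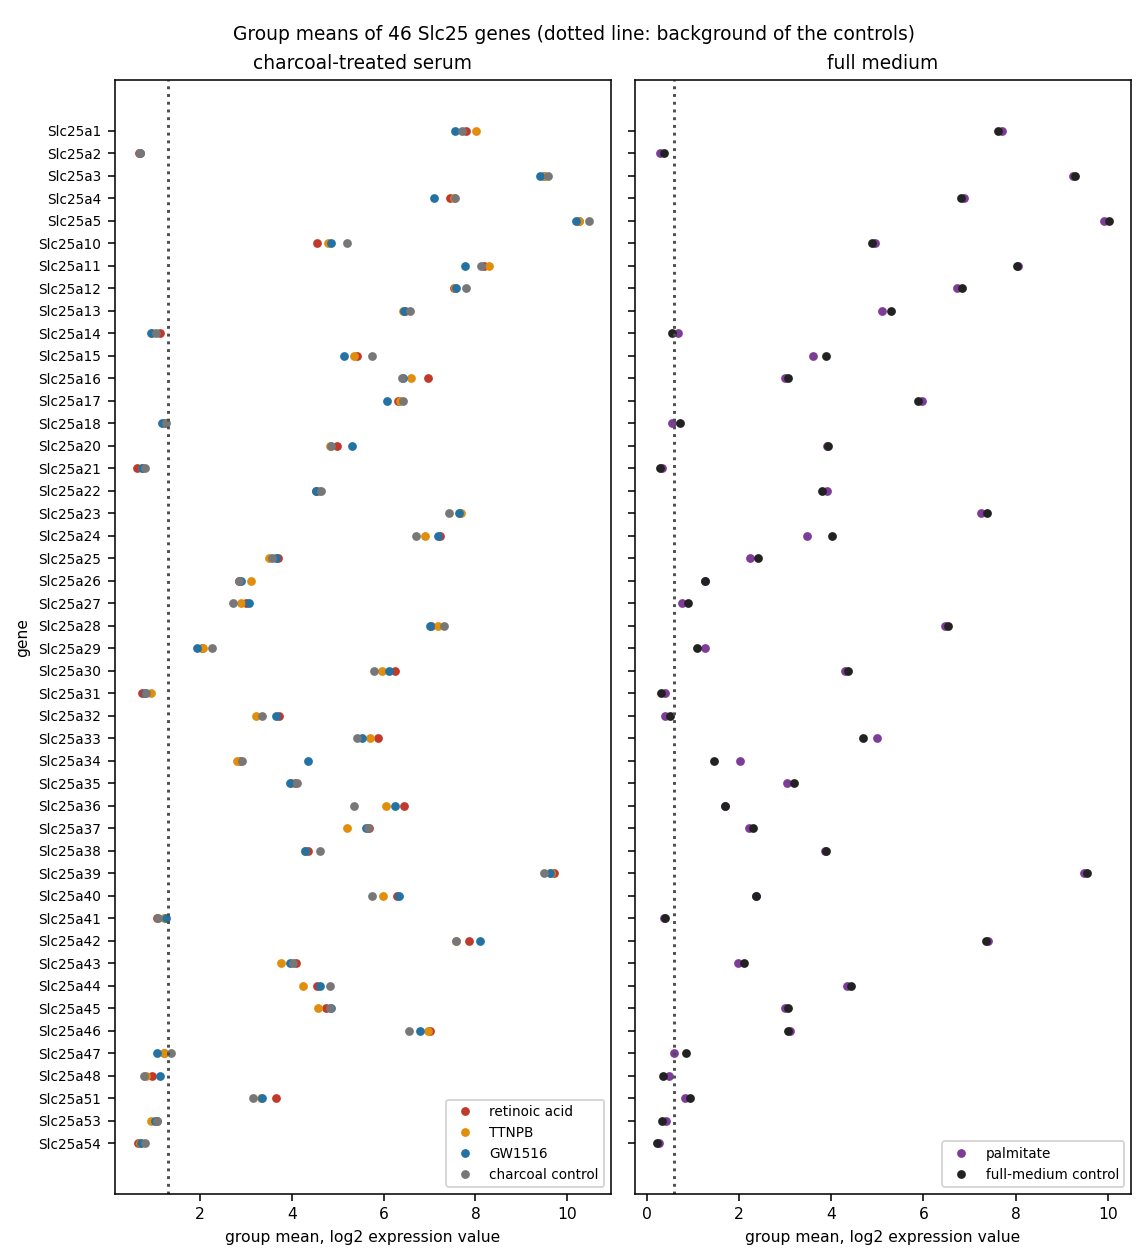
Group mean of each of the 46 carriers (log2 expression value, x axis), with the charcoal-serum groups on the left and the full-medium groups on the right, and a dotted line at the background of each control group. The 7 carriers above background in no group lie at the left edge of both panels. Points of different genes are not comparable with one another.

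GW1516 raised Slc25a34 more than any other carrier. Slc25a34 (probe set 17432256, chr4:141618819-141623891) read 4.21, 4.24 and 4.60 on the GW1516 arrays, against 2.73, 3.13 and 2.90 in charcoal controls. All 3 GW1516 arrays lay above all 3 controls. The change was 1.43 ± 0.25 (SE, 95% interval 0.89 to 1.96), or 2.69-fold, with an adjusted p of 0.00523, and it was the 7th largest of all 22180 genes by size. Slc25a34 read 2.83, 2.90 and 2.87 with retinoic acid and 2.98, 2.63 and 2.83 with TTNPB, and both sets overlapped the controls. The changes were -0.05 with retinoic acid (adjusted p = 0.957) and -0.10 with TTNPB (adjusted p = 0.954).

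GW1516 also raised Slc25a42, the coenzyme A carrier (chr8:70184340-70212281). It read 8.11, 8.11 and 8.07 with GW1516, against 7.45, 7.68 and 7.57 in charcoal controls. The arrays did not overlap, and the change was 0.53 ± 0.09 (95% interval 0.33 to 0.73), or 1.44-fold (adjusted p = 0.00527, and 0.214 when only those 6 arrays were fitted). With retinoic acid Slc25a42 read 7.86, 7.87 and 7.87, also above all 3 controls. That change, 0.30 ± 0.09, missed the threshold (adjusted p = 0.0767), though it passed when only the 6 retinoic acid and control arrays were fitted (adjusted p = 0.0221). With TTNPB it read 7.44, 7.57 and 7.69, which overlapped the controls, with a 95% interval of the change from -0.20 to 0.20.

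Slc25a20, the acylcarnitine carrier (chr9:108662136-108684642), did not pass with any ligand. It read 5.14, 5.27 and 5.54 with GW1516, against 4.88, 4.60 and 5.08 in charcoal controls. The GW1516 arrays all lay above the controls, but the change of 0.47 ± 0.20 (95% interval 0.05 to 0.88) had an adjusted p of 0.261, and without GW1516 array 3 it was 0.35 (adjusted p = 0.397). With retinoic acid the arrays read 5.31, 4.93 and 4.70 and with TTNPB 4.37, 5.02 and 5.08, and both sets overlapped the controls. The changes were 0.12 (adjusted p = 0.844) and -0.03 (adjusted p = 0.987). Cpt1a, which makes the acylcarnitines that Slc25a20 carries, read 7.91, 7.84 and 7.75 with GW1516, against 7.15, 7.01 and 7.20 in charcoal controls. It rose by 0.71 ± 0.10 (adjusted p = 0.00116) and was the 1 of 6 measured carnitine shuttle genes past the threshold with GW1516, where 2.57% of all genes passed. Its changes were -0.01 with retinoic acid and -0.24 with TTNPB (adjusted p = 0.363).

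**Figure D2:**
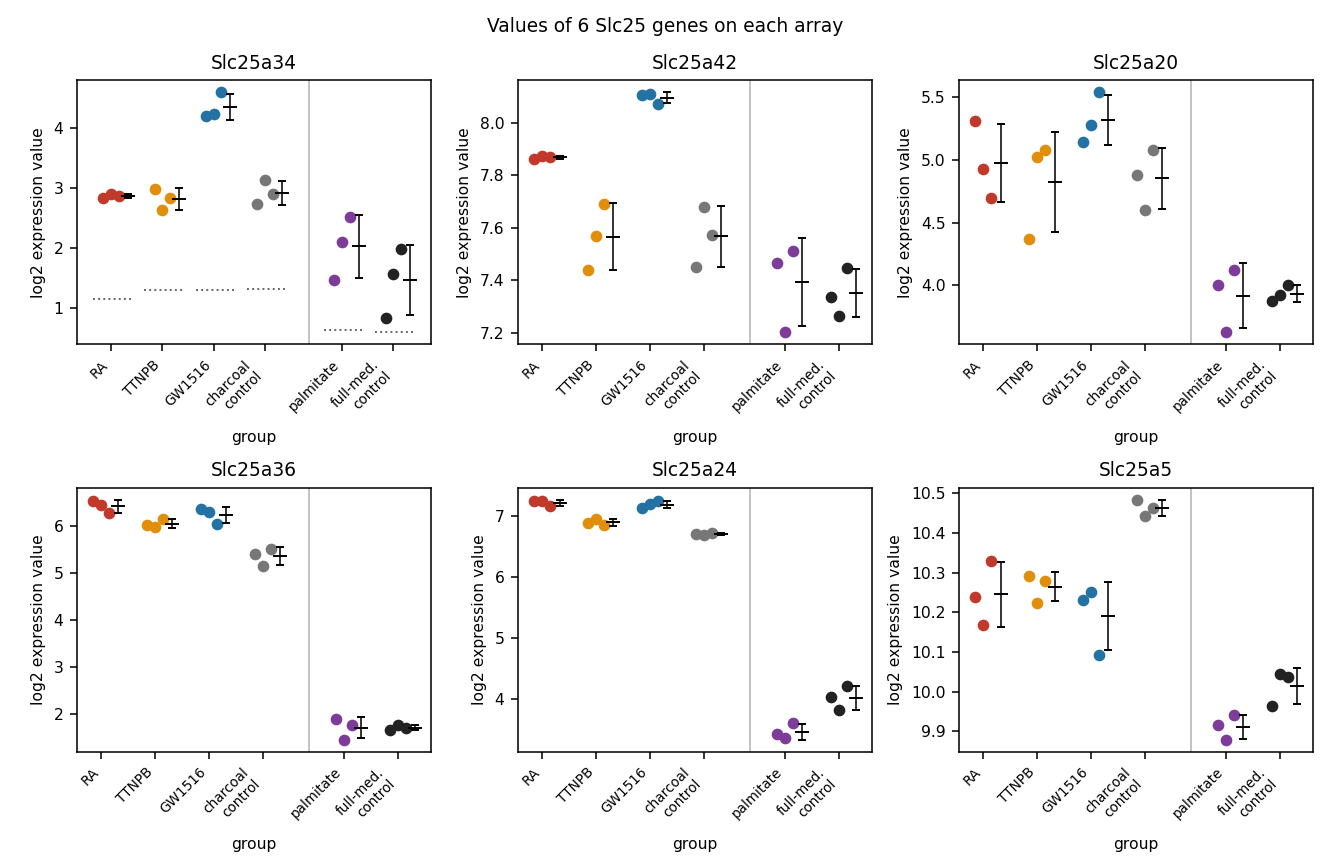
Log2 expression value of 6 carriers on each array (points), by group, with the mean ± SD (n = 3) beside each group, and in the Slc25a34 panel the background of each group as a dotted line. RA stands for retinoic acid, and the grey line parts the sera, which are not compared. Slc25a34 lies at 4.21 to 4.60 on the GW1516 arrays, against 2.73 to 3.13 in charcoal controls.

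In all, 7 of 46 carriers (15.2%) passed with GW1516, 5 higher and 2 lower, where 2.57% of all genes passed in either direction (1.89% higher and 0.681% lower). With retinoic acid 7 of 46 also passed, 5 higher and 2 lower, where 5.29% of all genes passed (3.82% higher and 1.47% lower). With TTNPB 1 of 46 passed (2.17%), where 1.26% of all genes did. All genes include many of low signal, which most carriers are not. A further fit left out genes whose mean lay under the median of all probe sets. Of the 12346 genes left, 12.1% passed with retinoic acid, 7.06% with GW1516 and 3.68% with TTNPB. The carriers that passed in that fit numbered 10, 8 and 1. The filter applied to carriers too, and the number left was not counted, so these are not counts out of 46. Counting instead the carriers whose 3 ligand arrays all lay beyond the 3 control arrays gave 13 of 46 with GW1516 (16.3% of all genes), 16 with retinoic acid (24.1% of all genes) and 12 with TTNPB (17.9% of all genes). The median carrier changed by -0.03 with GW1516, -0.01 with retinoic acid and -0.05 with TTNPB, against -0.01, -0.03 and -0.00402 over all genes. Counted once each, 10 carriers were called with at least 1 of the 4 ligands. The share of all genes so called was not counted, so this number has no share to be read against. The retinoic acid, TTNPB and GW1516 comparisons share their control arrays.

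**Figure D3:**
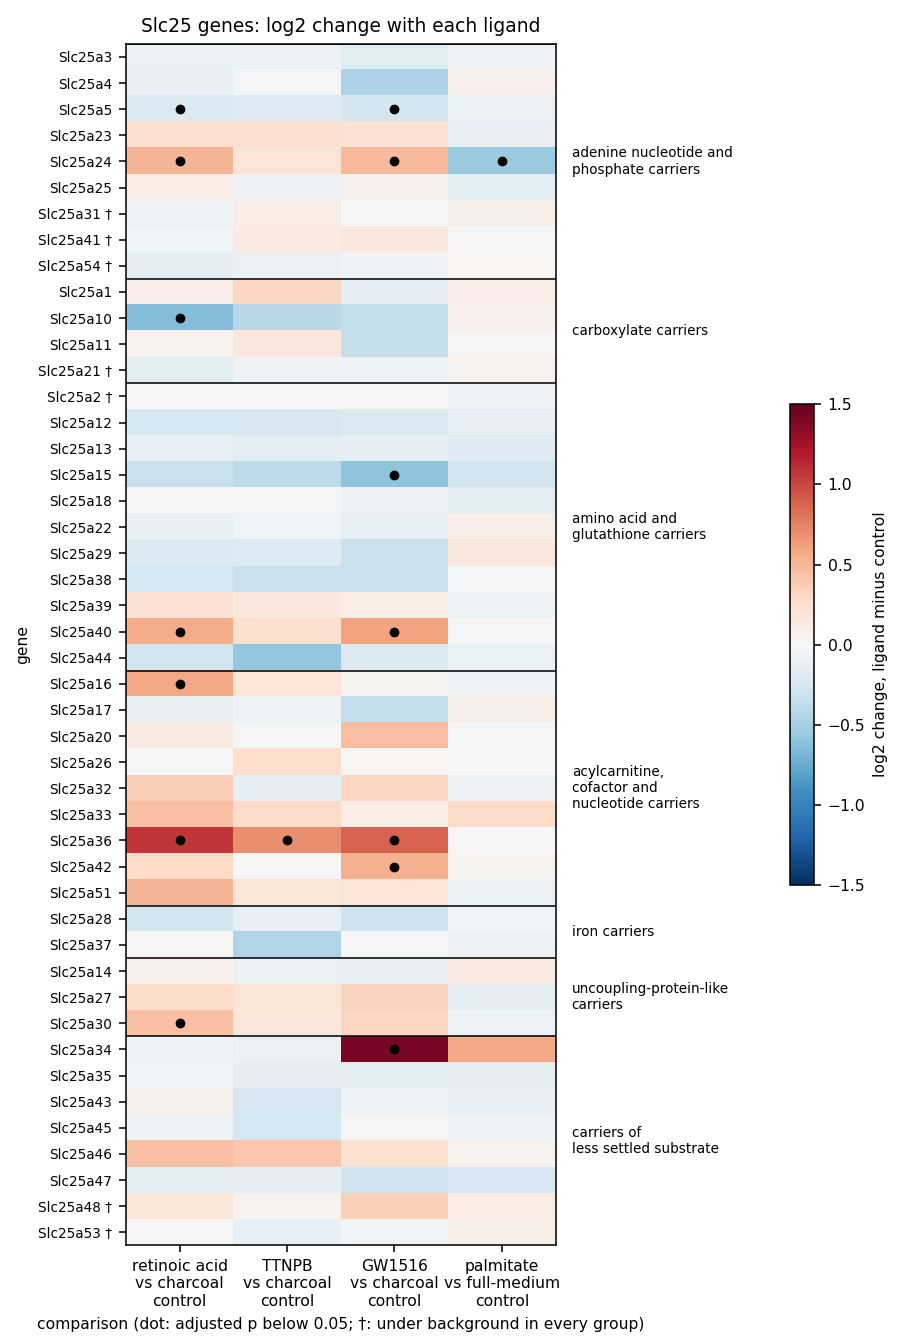
Log2 change of each of the 46 carriers with each ligand against the control of the same serum, ordered by role. Colour gives the log2 change, ligand minus control, a dot marks an adjusted p below 0.05 and a dagger a carrier under background in every group. Slc25a34 is the largest rise with GW1516 (1.43) and Slc25a36 the largest with retinoic acid (1.07).

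Slc25a36 was the carrier that passed with all 3 charcoal-serum ligands. It read 6.55, 6.47 and 6.28 with retinoic acid, 6.03, 5.99 and 6.16 with TTNPB and 6.38, 6.31 and 6.05 with GW1516, against 5.42, 5.14 and 5.52 in charcoal controls. Every ligand array lay above every control. It rose by 1.07 ± 0.14 with retinoic acid, 2.1-fold (adjusted p = 0.000152), by 0.70 with TTNPB, 1.62-fold (adjusted p = 0.0167), and by 0.89 with GW1516, 1.85-fold (adjusted p = 0.00236). With TTNPB the call was lost without charcoal control array 1 or 2 or TTNPB array 1 or 3 (adjusted p 0.0534 to 0.0845).

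Among the adenine nucleotide and phosphate carriers, Slc25a24 rose and Slc25a5 fell with both retinoic acid and GW1516. Slc25a24, which exchanges ATP-Mg for phosphate under control of calcium, read 7.25, 7.24 and 7.16 with retinoic acid and 7.13, 7.19 and 7.24 with GW1516, against 6.70, 6.69 and 6.73 in charcoal controls. It rose by 0.51 ± 0.11 (adjusted p = 0.00649) with retinoic acid and by 0.48 (adjusted p = 0.0196) with GW1516, the second call being lost without charcoal control array 1 or 2 (adjusted p 0.0637 to 0.0703). With TTNPB it read 6.89, 6.95 and 6.85, above the controls too, with a change of 0.19 that missed the threshold (adjusted p = 0.561). Slc25a54, which lies 6566 bases from Slc25a24 on chromosome 3, was under background. Slc25a5, an ADP/ATP exchanger, read 10.24, 10.17 and 10.33 with retinoic acid and 10.23, 10.25 and 10.09 with GW1516, against 10.48, 10.44 and 10.46 in charcoal controls. It fell by 0.22 (adjusted p = 0.0259) with retinoic acid, a call that 5 single arrays each ended when left out (adjusted p 0.0659 to 0.156). It fell by 0.27 (adjusted p = 0.0127) with GW1516, a call lost without charcoal control array 1 (adjusted p = 0.055). With TTNPB it read 10.29, 10.22 and 10.28, also below all 3 controls, with a change of -0.20 that missed the threshold (adjusted p = 0.0937). The other ADP/ATP exchanger, Slc25a4, had a change of -0.46 with GW1516 (adjusted p = 0.0708), with array 3 at 6.69, below 7.29 and 7.32 on arrays 1 and 2.

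Of the 4 carboxylate carriers, 1 passed with retinoic acid and 0 with TTNPB or GW1516, where 5.29%, 1.26% and 2.57% of all genes passed. Slc25a10, which exchanges dicarboxylates for phosphate, read 4.28, 4.62 and 4.75 with retinoic acid, against 5.33, 4.93 and 5.34 in charcoal controls, and fell by 0.65 ± 0.14 (adjusted p = 0.0093). That call was lost without charcoal control array 1 or retinoic acid array 1 (adjusted p 0.0501 to 0.0704). Its changes with TTNPB (-0.41, adjusted p = 0.2) and GW1516 (-0.35, adjusted p = 0.22) did not pass. The citrate carrier Slc25a1 had its largest value with TTNPB, a change of 0.31 (adjusted p = 0.189). The oxoglutarate carrier Slc25a11 had a GW1516 change of -0.36 (adjusted p = 0.434), and array 3 read 6.95, against 8.18 and 8.17 on arrays 1 and 2.

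Of the 11 amino acid and glutathione carriers, Slc25a40 rose with retinoic acid and GW1516 and Slc25a15 fell with GW1516. Of all genes, 3.82% were called higher with retinoic acid, and 1.89% higher and 0.681% lower with GW1516. Slc25a40, which takes part in glutathione import, read 6.28, 6.25 and 6.35 with retinoic acid and 6.42, 6.38 and 6.23 with GW1516, against 5.75, 5.35 and 6.11 in charcoal controls. It rose by 0.56 ± 0.15 (adjusted p = 0.0347) and by 0.61 (adjusted p = 0.0367), and the control arrays were spread widely. Without charcoal control array 2 its change with retinoic acid was 0.37, and that call was lost without charcoal control array 1 or 2 or any retinoic acid array. With GW1516, 8 single arrays each ended its call (adjusted p 0.0505 to 0.171). Slc25a15, the ornithine carrier of the urea cycle, read 5.32, 4.98 and 5.12 with GW1516, against 5.95, 5.51 and 5.79 in charcoal controls, and fell by 0.61 ± 0.14 (adjusted p = 0.0258). That call was lost without charcoal control array 1 or 3 or GW1516 array 2 (adjusted p 0.0712 to 0.12). With retinoic acid and with TTNPB its changes were -0.33 (adjusted p = 0.223) and -0.39 (adjusted p = 0.235). Slc25a44, a carrier of branched-chain amino acids, had the lowest TTNPB change of the family, -0.58 (adjusted p = 0.234), and a retinoic acid change of -0.28 (adjusted p = 0.578).

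Of the 9 measured acylcarnitine, cofactor and nucleotide carriers, 2 rose with retinoic acid (Slc25a16 and Slc25a36), 1 with TTNPB (Slc25a36) and 2 with GW1516 (Slc25a36 and Slc25a42), and 0 fell. Slc25a16, which has been linked to coenzyme A, read 6.95, 7.04 and 6.92 with retinoic acid, against 6.33, 6.47 and 6.37 in charcoal controls. It rose by 0.58 ± 0.17, with an adjusted p of 0.0499, at the threshold, and 13 of 18 single arrays left out ended the call. The shares of all genes called higher were 3.82% with retinoic acid and 1.89% with GW1516, and 1.26% of all genes passed in either direction with TTNPB. The group's median change was 0.36 with retinoic acid, 0.18 with TTNPB and 0.19 with GW1516, with 7, 5 and 8 of 9 changes positive, against medians of -0.03, -0.00402 and -0.01 over all genes. Slc25a51, the NAD carrier (0.51, adjusted p = 0.0639), and the nucleotide carrier Slc25a33 (0.45, adjusted p = 0.0657) missed the threshold with retinoic acid.

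Neither iron carrier passed with any ligand. The mitoferrin Slc25a37 had a TTNPB change of -0.45 (adjusted p = 0.183). Of the 3 relatives of the uncoupling proteins, Slc25a30 read 6.21, 6.34 and 6.19 with retinoic acid, against 5.82, 5.69 and 5.86 in charcoal controls, and rose by 0.46 ± 0.13 (adjusted p = 0.043), a call that 14 of 18 single arrays each ended when left out. Of the 8 carriers of less settled substrate, Slc25a34 with GW1516 was the 1 call. Beside these lists, 5.29% of all genes passed with retinoic acid, 1.26% with TTNPB, 2.57% with GW1516 and 0.681% with palmitate. Lists this small say little on how their share compares. Slc25a46, an outer membrane protein, had changes of 0.45 with retinoic acid (adjusted p = 0.123) and 0.40 with TTNPB (adjusted p = 0.3).

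The 3 ligands were given at the same dose and time, and the 3 pairs were compared directly, with p-values adjusted over all genes of each pair. Slc25a34 was lower with retinoic acid than with GW1516 by 1.48 (95% interval of the difference -2.02 to -0.95, adjusted p = 0.0106). It was lower with TTNPB than with GW1516 by 1.53 (interval -2.07 to -0.999, adjusted p = 0.021), the largest difference of all genes in that pair. Slc25a42 was lower with TTNPB than with GW1516 by 0.53 (adjusted p = 0.0391), and with retinoic acid than with GW1516 the difference of -0.23 did not pass (adjusted p = 0.468). In these pairs 1 and 2 carriers passed, where 0.352% and 0.0676% of all genes passed. The Slc25a34 call was lost without any 1 of the retinoic acid arrays in the first pair (adjusted p 0.0523 to 0.0663) and without GW1516 array 1 or any TTNPB array in the second (adjusted p 0.0652 to 0.19), and the Slc25a42 call without any of 12 arrays. When only the arrays of the pair were fitted, 0 carriers passed limma's test in either, with 3 and 7 at an unadjusted p below 0.05.

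**Figure D4:**
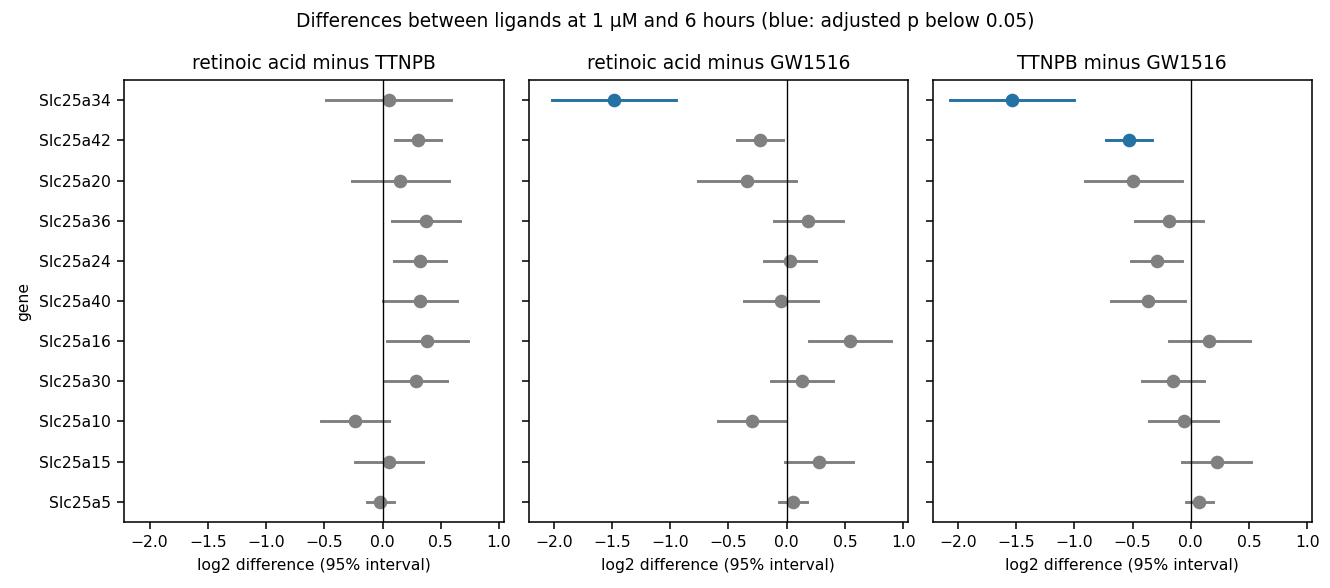
Log2 difference between ligands (x axis, first-named minus second-named) of 11 carriers named in the text, with 95% intervals and calls in blue. Slc25a34 lies at -1.48 for retinoic acid against GW1516 and at -1.53 for TTNPB against GW1516.

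Between the 2 RAR ligands, 0 carriers passed limma's test (0.153% of all genes passed), and 9 of 46 (19.6%) had an unadjusted p below 0.05, against 7.27% of all genes. That share includes genes of low signal and was not counted without them. All 9 were higher with retinoic acid. The lowest adjusted p of the 9 was that of Slc25a42, at 0.30 (interval 0.10 to 0.50, adjusted p = 0.368), and Slc25a36 was at 0.37 (interval 0.08 to 0.67, adjusted p = 0.514). Slc25a34 differed by 0.05 (interval -0.48 to 0.59). A difference that misses the threshold does not show that the 2 compounds act alike.

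Palmitate lowered 1 carrier, Slc25a24, which had risen with retinoic acid and GW1516 in the other serum. It read 3.43, 3.36 and 3.60 with palmitate, against 4.03, 3.83 and 4.21 in full-medium controls, and fell by 0.56, to 0.679-fold (adjusted p = 0.0135). Of 46 carriers 1 passed (2.17%), where 0.681% of all genes did, and the arrays did not overlap for 4 of 46, against 15.2% of all genes. The call was lost under quantile normalization (change -0.35), with arrays of the same serum alone, with arrays centred on their medians, and without full-medium control array 3 or palmitate array 1 or 2 (adjusted p 0.0536 to 0.102). Slc25a34 read 1.47, 2.09 and 2.51 with palmitate, against 0.83, 1.56 and 1.98 in full-medium controls. These overlapped, with a change of 0.57 (95% interval 0.03 to 1.10, adjusted p = 0.638). It was 0.25 without full-medium control array 1 and 0.84 without palmitate array 1. Slc25a42 and Slc25a20 had changes of 0.04 and -0.02 (adjusted p = 1 for both), and Slc25a36 read 1.89, 1.45 and 1.77, against 1.65, 1.77 and 1.71. Slc25a33 had a change of 0.29 (adjusted p = 0.723) and Slc25a15 of -0.28 (adjusted p = 0.751). Slc25a29, a carrier of basic amino acids, had a change of 0.17 (adjusted p = 1) and Slc25a47 of -0.25 (adjusted p = 0.957). Mpc1, a subunit of the pyruvate carrier, was the only gene of the neighbouring lists past the threshold with palmitate, where 0.681% of all genes passed. It read 6.09, 5.95 and 6.36 with palmitate, against 5.33, 5.54 and 5.15 in full-medium controls, and rose by 0.79 ± 0.16 (adjusted p = 0.0184).

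Of 13 genes of the import machinery that carries these proteins into mitochondria, 2 fell with retinoic acid, the outer membrane pore Tomm40 by 0.47 (adjusted p = 0.00338) and the small chaperone Timm8b by 0.35 (adjusted p = 0.0403), and 0 with TTNPB, GW1516 or palmitate. With retinoic acid 5.29% of all genes passed in either direction, and 1.47% of all genes fell. Tomm40 also read lower with TTNPB (-0.25, adjusted p = 0.209) and GW1516 (-0.30, adjusted p = 0.0734). So did Timm8b, by -0.28 with TTNPB (adjusted p = 0.213) and -0.29 with GW1516 (adjusted p = 0.139). For both genes every TTNPB and GW1516 array lay below every charcoal control. Of all genes, 17.9% with TTNPB and 16.3% with GW1516 had arrays apart in either direction. None of these TTNPB and GW1516 changes passed, and the ligands share their control arrays. Whether the falls were particular to retinoic acid is therefore not settled. Of 9 other mitochondrial transporters measured, the sideroflexin Sfxn3 rose with retinoic acid by 0.52 (adjusted p = 0.0234), where 3.82% of all genes rose. None of the 4 measured carrier relatives with other symbols and none of 6 shuttle enzymes passed with any of the 4 ligands, where 0.681% to 5.29% of all genes passed.

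The array that stood apart, GW1516 array 3, was also left out. Without it the same 7 carriers passed, with Slc25a34 at 1.30 (adjusted p = 0.0122), Slc25a42 at 0.54 (adjusted p = 0.00377) and Slc25a36 at 0.98 (adjusted p = 0.00104). With the 6 arrays of GW1516 and its control fitted alone, 0 carriers passed limma's test (adjusted p = 0.167 for Slc25a34, and 9 carriers at an unadjusted p below 0.05). The share of all genes at that unadjusted level was not counted in this fit. With all 18 arrays fitted it was 15.4%.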

How the data were processed

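Gene expression was measured in 18 samples of NaF cells. The authors deposited log2 values of 41345 probe sets; the scale was read from the range. Partek is named in the submitters' processing notes, and its version, background correction and normalization are not given in the sources used here. Of the probe sets, 23521 had 1 symbol, 1814 several and 16010 none, and 23328 were found by Entrez number in the GRCm38.p6 table. The brightest probe set, by mean over the arrays, stood for each of 1082 genes that had several. No gene was dropped for low signal.

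A model of 6 group means on all 18 arrays used limma 3.58.1 (R 4.3.3; moderated variances with an intensity trend, 12 residual degrees of freedom). P-values were 2-sided and adjusted by Benjamini-Hochberg over 22180 genes, with a threshold of 0.05. The number of arrays limits the precision. The labels do not say whether replicates were separate cultures, so p-values measure the spread between these arrays, which may be technical. Replicate arrays shared identical values (within 1e-06) for at most 2.55% of probe sets. Replicate numbers were not used to pair the samples in the main fit. The correlations of deviations (-0.28 to 0.21) do not settle whether equal numbers mark a shared batch.

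The members, lists, background definition and tests were chosen with earlier results of these data known. The text names Slc25a34, Slc25a42, Slc25a20, every carrier past the threshold, the 3 largest rises and falls above background per ligand, the brightest probe set per role group, carriers never above background, passing genes of the other lists, and Cpt1a. Alternatives were other fits, normalizations, filters and thresholds, and each array left out. The code was tested on simulated data. Protein sequences were not used here.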

Additional observations from a re-analysis of the deposited data

How the results depend on the processing

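The carriers past the threshold with retinoic acid (7 as reported) numbered 4 with arrays of the same serum, 4 with arrays centred on medians, 3 with the replicate block, 3 at an adjusted p below 0.01, 12 with array weights, 13 without GW1516 array 3 and palmitate array 2 together, and 2 to 12 with single arrays left out. The share of all genes passed moved too. It was 5.29% as reported, and in the same order 4.22%, 3.63%, 3.78%, 2.34%, 9.08%, 9.92% and 2.63% to 9.08%. With TTNPB (1 as reported) the carriers numbered 4 with only the arrays of the 2 groups, 0 with the replicate block, 3 with array weights, 0 with centred arrays, 0 at the stricter threshold, 3 without those 2 arrays, and 0 to 3 with single arrays left out. The share of all genes was 1.26% as reported, and in the same order 2.25%, 0.672%, 2.8%, 0.455%, 0.419%, 4.38% and 0.505% to 3.76%. With GW1516 (7 as reported) the carriers numbered 0 with only the 2 groups, 3 with centred arrays (3 higher and 0 lower), 3 at the stricter threshold, and 3 to 8 with single arrays left out. The share of all genes was 2.57% as reported, and in the same order 0.0135%, 1.35%, 0.73% and 0.893% to 3.21%. With palmitate (1 as reported) the carriers numbered 0 with only the 2 groups, with the same serum, with quantile normalization over all arrays or within each serum, with centred arrays and at the stricter threshold, and 0 to 1 with single arrays left out. For palmitate the first 2 of these are 1 fit of the same arrays. The share of all genes was 0.681% as reported, and in the same order 0.00451%, 0.00451%, 0.739%, 0.78%, 0.144%, 0.248% and 0.28% to 1.97%. Between retinoic acid and TTNPB (0 as reported) the number was 1 with only the 2 groups and 0 to 0 with single arrays left out. The share of all genes was 0.153% as reported, 1.12% with only the 2 groups and 0.0406% to 0.591% with single arrays left out. Between retinoic acid and GW1516 (1 as reported) the number of carriers was 0 with only the 2 groups, with quantile normalization and at the stricter threshold, and 0 to 1 with single arrays left out. The share of all genes was 0.352% as reported, and in the same order 0.00902%, 0.577%, 0.135% and 0.122% to 0.613%. Between TTNPB and GW1516 (2 as reported) the number of carriers was 0 with only the 2 groups, 1 with the same serum, the replicate block, no trend, quantile normalization or centred arrays, 0 at the stricter threshold, and 0 to 2 with single arrays left out. The share of all genes was 0.0676% as reported, and in the same order 0%, 0.0316%, 0.0225%, 0.0902%, 0.104%, 0.0271%, 0.0135% and 0.018% to 0.203%. The labels do not say whether equal replicate numbers mark a shared batch, and the correlations of deviations (-0.28 to 0.21) do not settle it. The counts with the block therefore stand beside the others. Where these settings gave 0, the carriers at an unadjusted p below 0.05 numbered 10 to 12 with TTNPB, 9 with GW1516, 2 to 4 with palmitate, 3 to 8 between retinoic acid and GW1516 and 7 to 10 between TTNPB and GW1516. In the fit as reported, 11.2%, 15.4%, 7%, 9.3% and 10.5% of all genes were at that level, in the same order. The share was not counted in the other fits, so their counts have none to be read against. The cause of these shifts was not tested.

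No called carrier changed direction. Changes that reversed sign were small and uncalled. Slc25a34 with retinoic acid was 0.0123 with array weights and 0.0043 with centred arrays. Slc25a20 with retinoic acid was -0.000172 with quantile normalization within each serum. Slc25a42 with TTNPB was 0.0299 with array weights, 0.0124 with quantile normalization, 0.0095 with centred arrays and 0.0105 within each serum. Slc25a20 with palmitate was 0.0397 with array weights, 0.0626 with quantile normalization, 0.0834 within each serum and 0.127 without the 2 arrays. The difference of Slc25a34 between retinoic acid and TTNPB was -0.0248 with quantile normalization and -0.0297 within each serum. With single arrays left out, ranges that crossed 0 were -0.148 to 0.0529 and -0.0411 to 0.265 for Slc25a34 and Slc25a20 with retinoic acid, and -0.200 to 0.00117, -0.0631 to 0.0638 and -0.157 to 0.200 for Slc25a34, Slc25a42 and Slc25a20 with TTNPB. They were -0.121 to 0.127 and -0.0164 to 0.138 for Slc25a20 and Slc25a42 with palmitate, and -0.0750 to 0.294 and -0.0419 to 0.135 for Slc25a20 and Slc25a34 between retinoic acid and TTNPB. The rises of Slc25a36 and Slc25a24 with retinoic acid kept their calls under all 32 alternatives, and those of Slc25a34, Slc25a42 and Slc25a36 with GW1516 under 31 of 32. Over all genes, 848 of 1174 calls were higher with retinoic acid and 419 of 570 with GW1516, and those shares were 54.6% and 55.2% with quantile normalization and 84.5% and 84.9% with centred arrays. The settings without those 2 arrays together and quantile normalization within each serum were chosen after the data were seen.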
